A study of Rattus norvegicus with 26 samples.

Results

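The genes described here build the presynaptic machinery that stores transmitter in vesicles and releases it. They were chosen by name from the table of normalized counts of the dentate gyrus (DG), the hippocampal field whose granule cells send mossy fibers to CA3. The chosen names were the numbered synaptotagmins, synapsins, vesicle proteins 2 (Sv2), VAMPs, syntaxins, SNAPs, complexins, Rab3 and Unc13 paralogs, RIMs and syntaxin binding proteins, together with Syp, Synpr, Bsn and Pclo. The rule matched 72 of the 17910 genes in the table. After rows of the same gene were summed, 71 of the 72 had a mean of at least 5 normalized counts over all rats and were tested among 15595 genes; Syt8, with a mean of 3.91, was not.

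At a synapse, a vesicle SNARE (VAMP2, synaptobrevin) and plasma membrane SNAREs (a syntaxin and SNAP-25) zip together and pull the vesicle onto the membrane. Complexins and Munc13 (the Unc13 genes) guide and hold that assembly, and calcium binding to a synaptotagmin completes fusion. RIM, bassoon and piccolo form the active zone scaffold, Rab3 proteins link vesicles to it, and synapsins cluster the reserve pool. Mossy fiber terminals of granule cells are known for large vesicle pools and strong facilitation of release.

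The study asked whether the chemotherapy drug doxorubicin (Dox) alters the brain and whether the senolytic ABT-263 (navitoclax, an inhibitor of anti-apoptotic BCL-2 family proteins that kills senescent cells) counters it. DG RNA was sequenced from male F344 rats of 6 months, 1 library per rat and from a single hemisphere: 10 rats given vehicle (Veh), 8 given Dox and 8 given Dox together with ABT-263 (Dox + ABT). Dox was injected weekly and ABT-263 was gavaged in courses, vehicle was gavaged to the Veh rats, and all rats had gone through behavioral testing before tissue was taken. No group received ABT-263 alone, and the Veh rats belonged to another study, so their source and the treatment cannot be told apart.

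Depth, estimated from the value that 1 read takes among low counts, ran from 1.02e+07 to 2.43e+07 reads per library. Of 8 granule cell markers, 7 had a row and 6 passed the filter; Tdo2 had no row and Lct was under the filter. The summed granule markers overlapped across groups, and their medians were 13175 (Veh), 11595 (Dox) and 11871 (Dox + ABT) normalized counts. The summed level of 8 microglia markers had group medians of 6332 (Veh), 5088 (Dox) and 4600 (Dox + ABT), and its ranges also overlapped. In Dox against Veh 4 of the 8 microglia, 3 of 8 astrocyte, 2 of 8 oligodendrocyte, 2 of 7 endothelial and mural and 1 of 4 choroid plexus markers were lower at limma p under 0.01, and 1 endothelial or mural marker was higher. In Dox + ABT against Veh 1 of 8 microglia, 1 of 8 astrocyte and 1 of 6 granule cell markers were lower at that threshold, and 1 of 8 oligodendrocyte and 2 of 8 interneuron markers were higher. In Dox against Dox + ABT 1 of 8 pan-neuron markers was higher in Dox, and 1 of 8 astrocyte, 2 of 8 oligodendrocyte, 1 of 7 endothelial and mural and 1 of 4 choroid plexus markers were lower. Their part in the member differences was not tested. DG tissue is bulk material, in which fewer cells of a type and less RNA per cell cannot be told apart.

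The libraries fell into 2 kinds on the first principal component of within-group variation, computed over genes that are not among the 72. The component carried 28.4% of that variation, and the kinds were set apart by a gap in scores between -0.837 and 21.0. The first kind held 16 rats (4 Veh, 5 Dox, 7 Dox + ABT) and the second 10 rats (6 Veh, 3 Dox, 1 Dox + ABT). Counts of ribosomal protein genes made up 0.993% ± 0.146 of the total in the first kind and 1.64% ± 0.224 in the second (SD, n = 16 and 10). Median estimated depth was 1.51e+07 reads in the first kind and 1.88e+07 in the second. Summed granule cell markers had medians of 12264 in the first kind and 12856 in the second, and summed microglia markers 4694 and 6332. The marker calls above came from the fit without library kind. Because the groups hold unequal numbers of each kind, called members are also given with library kind as a term in the fit, and so are part of the others.

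Estimated differences between Veh and Dox rats were small for the core release genes. None of 18 core genes (Syt1, Syt7, Syn1, Syn2, Syp, Synpr, Sv2a, Vamp1, Vamp2, Stx1a, Snap25, Cplx1, Cplx2, Unc13a, Rims1, Bsn, Pclo and Rab3a) passed limma p under 0.01, the study's own threshold, in Dox against Veh, where 2.87% of all genes did. Their log2 differences, Dox minus Veh, had a median of 0.07 and ran from -0.08 for Vamp2 to 0.26 for Bsn. For 16 of the 18 the whole 95% interval lay within 0.5 log2 units of no change; Bsn and Pclo reached 0.51 at the upper end. The whole interval lay within the same limits for 82.4% of all 3148 genes with a mean of at least 1000 and 59.3% of all genes tested.

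Syt1 encodes the calcium sensor of fast synchronous release. Its normalized counts were 10050 to 14431 (median 12217) in the 10 Veh rats, 11582 to 15981 (median 13856) in the 8 Dox rats and 12352 to 15199 (median 14464) in the 8 Dox + ABT rats. All groups overlapped, with a log2 difference of 0.14 (95% interval -0.01 to 0.30) for Dox and 0.20 (0.05 to 0.36) for Dox + ABT, both against Veh. With library kind in the fit these were 0.11 (p = 0.12) and 0.14 (p = 0.069, both by limma). Snap25, the plasma membrane partner of VAMP2, measured 11711 to 20083 (median 15993) in Veh, 13509 to 19108 (median 15850) in Dox and 15225 to 22084 (median 18351) in Dox + ABT. The Dox rats lay inside the Veh range, and the intervals were -0.16 to 0.25 for Dox and 0.04 to 0.44 for Dox + ABT against Veh. With library kind in the fit the estimates for Snap25 were 0.02 and 0.19 (p = 0.82 and 0.076).

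Vamp2 levels were 12857 to 19374 (median 15863) in Veh, 11186 to 17662 (median 15664) in Dox and 12938 to 18751 (median 14269) in Dox + ABT. Syp, the abundant vesicle membrane protein synaptophysin, ran from 7313 to 12435 (median 9592) in Veh, 6883 to 11869 (median 9952) in Dox and 7058 to 9959 (median 9471) in Dox + ABT. Neither differed beyond its spread, with 95% intervals of -0.28 to 0.12 (Vamp2) and -0.17 to 0.26 (Syp) for Dox against Veh. With library kind in the fit the Dox estimates were -0.05 (Vamp2) and 0.05 (Syp).

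**Figure D1:**
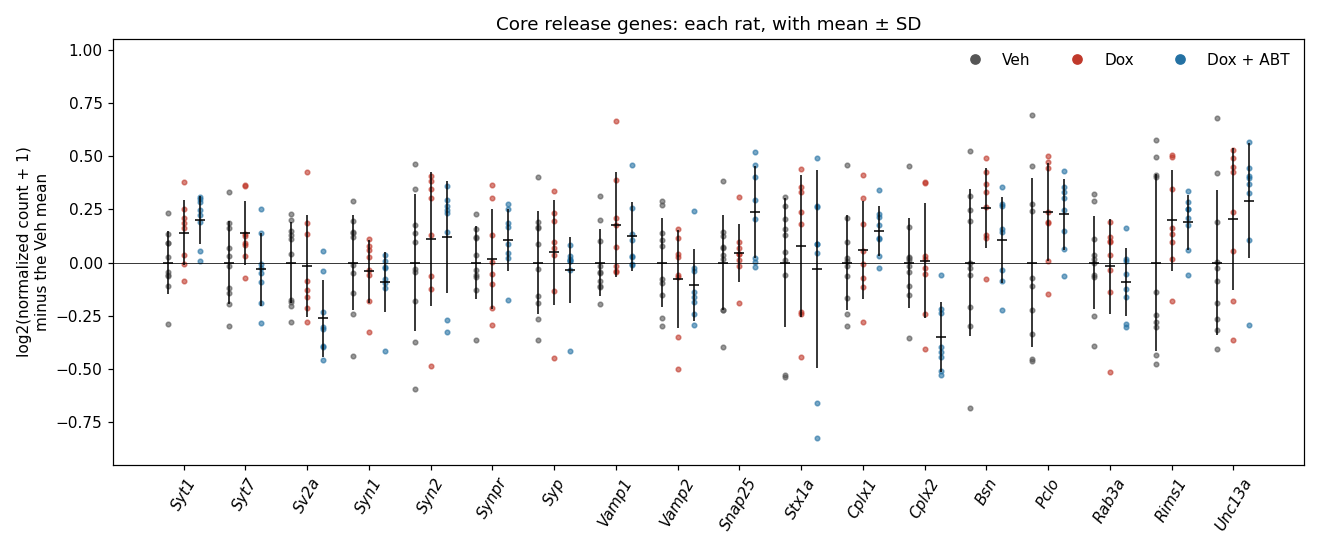
Log2(normalized count + 1) of each rat minus the Veh mean (y axis) for the 18 core release genes (x axis), with points for single rats and black bars for the mean ± SD in Veh (n = 10), Dox (n = 8) and Dox + ABT (n = 8). Groups overlap for every gene shown, and Cplx2 in Dox + ABT sits lowest, at a mean of -0.35.

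Across all 71 members, 4 passed p under 0.01 in Dox against Veh (5.63%), 1 higher and 3 lower. Of all 15595 genes, 2.87% passed, 1.02% higher and 1.85% lower. No member had a Benjamini-Hochberg adjusted p under 0.05 (the smallest was 0.261), and 3 genes of the whole table did. The median member difference was 0.02 log2 units, against 0.00 for all genes, with 40 members above zero and 31 below. The count fell to 2 without Dox rat 1, Dox rat 2 or Dox rat 5, where 1.71%, 1.74% and 3.36% of all genes passed.

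Rab3b (ENSRNOG00000008001) encodes a Rab3 GTPase of vesicle docking that has been tied to hippocampal plasticity. Its normalized counts were 326 to 550 (median 408) in Veh and 250 to 372 (median 317) in Dox, and every Dox rat lay below the Veh median, 4 of them below all Veh rats. The log2 difference was -0.43 ± 0.13 (SE; limma p = 0.0036, adjusted p = 0.26). Dox + ABT rats spanned both groups, at 247 to 548 (median 380). Adjusted for library kind the Dox difference was -0.39 (p = 0.0063), and it was -0.27 (p = 0.16) within the first kind and -0.57 (p = 0.0020) within the second.

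Stxbp5 (ENSRNOG00000013351) encodes tomosyn-1, a SNARE-binding inhibitor of vesicle priming. Its normalized counts were 1972 to 2981 (median 2432) in Veh, 2434 to 4161 (median 2914) in Dox and 2539 to 3168 (median 2979) in Dox + ABT. All 16 rats given Dox lay above the Veh median, and Dox rats 1 and 2 stood apart at 4161 and 4088. Both were of the first kind of library, where the other Dox rats ran from 2739 to 2942. Veh rats of the 2 kinds did not overlap, at 2707 to 2981 in the first and 1972 to 2550 in the second. No fit left out Dox rats 1 and 2 together. The log2 difference for Dox was 0.30 ± 0.10 (limma p = 0.0049, adjusted p = 0.29). It was 0.24 (p = 0.018) without Dox rat 1, 0.24 (p = 0.017) without Dox rat 2 and 0.26 (p = 0.011) without Veh rat 9. Adjusted for library kind it was 0.23 (p = 0.0047), and it did not pass within the first kind (0.21, p = 0.069), within the second (0.24, p = 0.033) or with array weights and kind together (0.12, p = 0.087). The gene was lower in the second kind of library, by a log2 difference of -0.31.

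The other called members were measured at low levels, where 1 read is worth 0.692 to 1.49 normalized counts. Syt9 (ENSRNOG00000019613), a synaptotagmin that can drive fast release in some neurons, had 13.1 to 35.4 (median 21.6) normalized counts in Veh and 9.77 to 19.9 (median 11.6) in Dox. Every Dox rat was below the median of Veh and 5 were below every Veh rat, for a log2 difference of -0.72 ± 0.25 (limma p = 0.0068, adjusted p = 0.31). Dox + ABT rats ran from 7.05 to 32.4 (median 17.9). Adjusted for library kind the Dox difference of Syt9 was -0.72 (p = 0.0081), and it was -0.86 (p = 0.024) within the first kind and -0.68 (p = 0.059) within the second. Without any one of Veh rats 6, 10, 11 and 12 or Dox rats 2, 5, 7, 9 and 13 the p for Syt9 rose to between 0.011 and 0.015, and the difference stayed between -0.70 and -0.64.

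Vamp5 (ENSRNOG00000012659), a VAMP known from muscle and other non-neuronal membranes, had 13.6 to 28.7 (median 21.0) normalized counts in Veh, 5.69 to 21.6 (median 13.3) in Dox and 9.64 to 31.5 (median 12.3) in Dox + ABT. The median of Veh exceeded 7 of 8 Dox rats, and 4 were below all Veh rats, for a log2 difference of -0.71 ± 0.24 (limma p = 0.0061, adjusted p = 0.31). Its p rose to between 0.010 and 0.021 without Veh rat 1, 2 or 4 or Dox rat 1, 5 or 14, where the difference was -0.69 to -0.56. It was also higher in the second kind of library by 0.46 log2 units, and after adjustment for it the Dox difference was -0.61 (p = 0.013), with -0.51 (p = 0.15) within the first kind and -0.79 (p = 0.022) within the second. The summed level of 7 endothelial and mural markers had group medians of 2480 (Veh), 2882 (Dox) and 2456 (Dox + ABT), and in Dox against Veh 2 of the 7 passed as lower and 1 as higher. By kind of library this sum had a median of 2455 in the first and 3215 in the second. The part of these markers in the Vamp5 difference was not tested.

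In Dox + ABT against Veh the members that passed were Unc13b, Stx3, Cplx2 and Stx7. They are 4 of 71 (5.63%), 2 higher and 2 lower, where 7.84% of all genes passed, 3.89% higher and 3.95% lower. The median member difference was 0.00 log2 units, as for all genes (-0.00), with 37 members above zero and 34 below. The smallest adjusted p of a member was 0.108, and no gene of the table was under 0.05. This comparison shares its Veh rats with that of Dox, so values are set side by side only. The count rose to 11 without Dox + ABT rat 4, the only Dox + ABT rat of the second kind of library, and to 7 or 8 without Veh rat 5, 6, 10 or 11. The share of all genes rose as well, to 11.7% without Dox + ABT rat 4 and to between 9.94% and 13.7% without those Veh rats.

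Unc13b (ENSRNOG00000008237) encodes Munc13-2, a priming factor used at a subset of hippocampal synapses, mossy fibers among them. Its normalized counts were 277 to 659 (median 387) in Veh, 361 to 663 (median 522) in Dox and 437 to 725 (median 639) in Dox + ABT. All 8 Dox + ABT rats were above the Veh median, 2 of them above every Veh rat. Veh rats of the 2 kinds of library did not overlap, at 429 to 659 in the first and 277 to 411 in the second. The log2 difference of Dox + ABT from Veh was 0.59 ± 0.14 (limma p = 0.00029, adjusted p = 0.11), and that of Dox from Veh was 0.32 ± 0.14 (p = 0.034). The Dox difference was 0.20 (p = 0.054) with library kind in the fit, 0.01 (p = 0.94) within the first kind and 0.43 (p = 0.019) within the second. Unc13b was lower in the second kind of library by a log2 difference of -0.50. After adjustment for library kind the Dox + ABT difference was 0.35 (p = 0.0030), and within the first kind it was 0.26 (p = 0.027).

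Stx3 (ENSRNOG00000021013), a syntaxin of dendritic exocytosis and of ribbon synapses, had 55.4 to 192 (median 89.8) normalized counts in Veh, 116 to 198 (median 170) in Dox and 84.7 to 227 (median 202) in Dox + ABT. The log2 difference of Dox + ABT from Veh was 0.74 ± 0.21 (limma p = 0.0018, adjusted p = 0.11) and that of Dox was 0.57 ± 0.21 (p = 0.013). Veh rats of the 2 kinds of library did not overlap: the 4 of the first kind ran from 119 to 192 and the 6 of the second from 55.4 to 91.3. The Dox + ABT difference was 0.37 (p = 0.027) when adjusted for library kind and 0.28 (p = 0.089) within the first kind. The Dox difference was 0.39 (p = 0.013) when adjusted, and 0.06 (p = 0.72) within the first kind and 0.80 (p = 0.0018) within the second.

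Stx7 (ENSRNOG00000015670), a syntaxin of late endosomes, went the other way. It measured 1198 to 2212 (median 1889) in Veh, 1249 to 2279 (median 1389) in Dox and 1259 to 1685 (median 1373) in Dox + ABT, with all 8 Dox + ABT rats below the Veh median. The log2 difference was -0.34 ± 0.12 (limma p = 0.0082, adjusted p = 0.12), and it was 0.49 log2 units higher in the second kind of library than in the first. When adjusted for library kind the difference was -0.10 (p = 0.14), and within the first kind -0.08 (p = 0.32). Leaving out Veh rat 1, 2, 3, 4, 9 or 12 or any Dox + ABT rat but rat 4 left p between 0.010 and 0.018 and the difference between -0.35 and -0.30.

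Cplx2 (ENSRNOG00000000105), which encodes complexin-2, a clamp and promoter of SNARE-driven fusion in excitatory neurons, was the single core gene to pass, and the single member that separated Dox from Dox + ABT. Its normalized counts were 19673 to 34510 (median 25161) in Veh, 19000 to 32739 (median 25098) in Dox and 17435 to 24142 (median 18997) in Dox + ABT. All 8 Dox + ABT rats lay below the Veh median and below the Dox median, and 5 lay below every Veh rat. The log2 difference of Dox + ABT from Veh was -0.35 ± 0.11 (limma p = 0.0027, adjusted p = 0.11), and Dox exceeded Dox + ABT by 0.36 ± 0.11 (p = 0.0033, adjusted p = 0.19). Dox did not differ from Veh beyond the spread, at 0.01 (95% interval -0.21 to 0.23).

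For Cplx2 the kinds of library changed the values less than for Stx3 or Stx7. With kind in the fit, Dox + ABT differed from Veh by -0.25 (p = 0.023) and Dox from Dox + ABT by 0.31 (p = 0.0059). Within the first kind the same differences were -0.28 (p = 0.011) and 0.34 (p = 0.0016). The Dox + ABT difference from Veh was -0.22 (p = 0.013) under quantile normalization and -0.23 (p = 0.017) with array weights and kind together, neither of which passed. Leaving out Dox rat 7 or Dox rat 14 moved the second difference to 0.31 with p = 0.010 in both cases. Cplx1, the paralog common in inhibitory neurons, differed by 0.15 (95% interval -0.05 to 0.34) for Dox + ABT against Veh, by 0.06 with kind in the fit and by -0.01 within the first kind. The summed level of 9 CA field or mossy cell markers had medians of 11165 (Veh), 10731 (Dox) and 8466 (Dox + ABT), with overlapping ranges and no marker called in any comparison. By kind of library this sum had a median of 8870.5 in the first and 11442 in the second. Its part in the Cplx2 difference was not tested.

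In Dox against Dox + ABT, 1 of 71 members passed (1.41%), while 4.03% of all genes did, 2.32% higher in Dox and 1.71% lower. The median member difference was 0.00 log2 units. Among the 18 core genes, 17 had intervals within 0.5 log2 units of no difference, Cplx2 being the exception. Without Dox rat 7 or Dox rat 14 no member passed, and without Dox rat 2, 5 or 13 or Dox + ABT rat 2, 4 or 12 the count was 2 or 3. Of all genes 3.57% and 3.17% passed without Dox rats 7 and 14, and 2.88% to 5.05% without the other rats named.

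**Figure D2:**
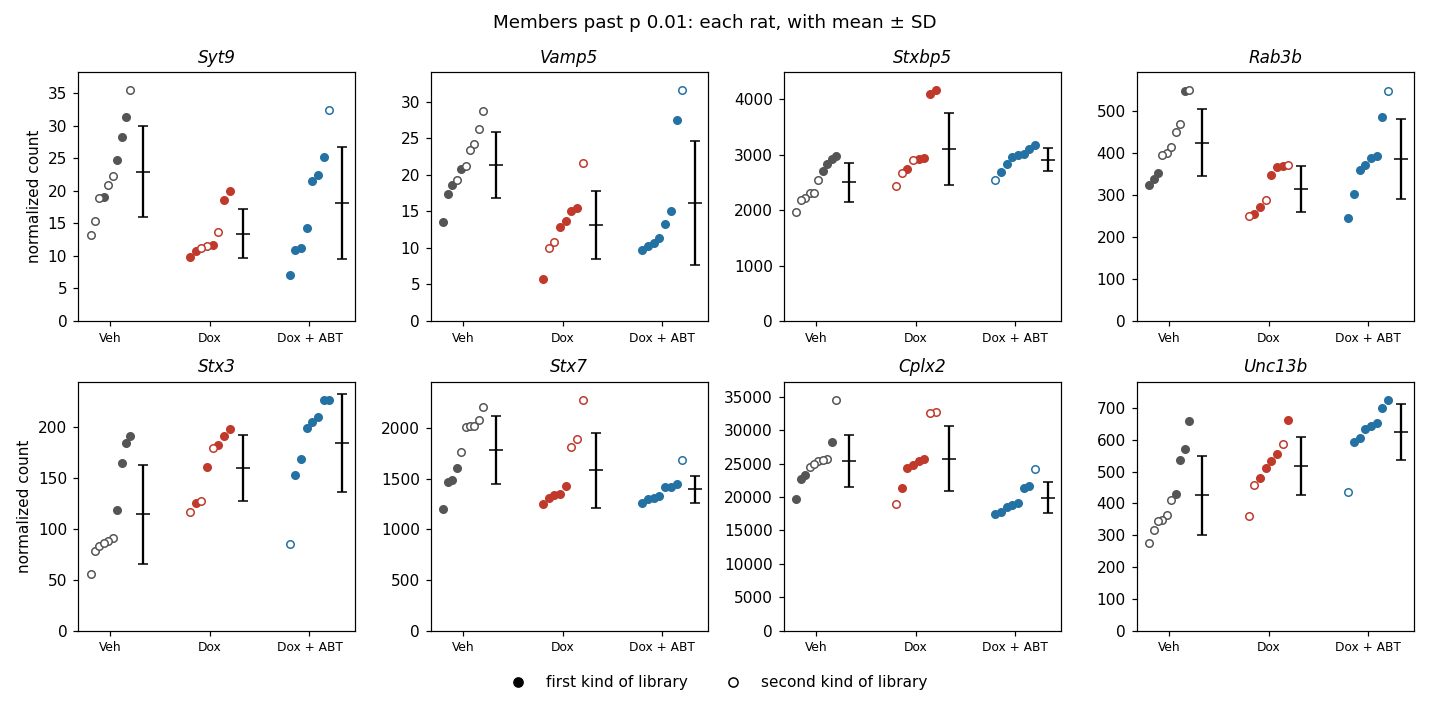
Normalized counts (y axis, from 0) of each rat for the 8 members past p under 0.01 in any comparison, by group (x axis), with filled points for the first and open points for the second kind of library and bars for the mean ± SD. Rab3b and Syt9 sit below the Veh median in all 8 Dox rats, and Cplx2 in all 8 Dox + ABT rats. Veh points for Stxbp5, Stx3, Stx7 and Unc13b split by the kind of library.

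Upstream sequence was drawn from RefSeq (build GRCr8, which is not the rn6 build of the counts) for the members that moved most clearly in each direction: Rab3b and Stxbp5 with Dox, Cplx2 and Unc13b with Dox + ABT. Each run is the 250 bases before the annotated start, 5′ to 3′ on the gene's strand. Capitals mark the GC box GGGCGG, the core TGACG of a cyclic AMP response element, and the TATA box TATAAA, searched on both strands.
Rab3b (chr5:128858841-128859090, plus strand): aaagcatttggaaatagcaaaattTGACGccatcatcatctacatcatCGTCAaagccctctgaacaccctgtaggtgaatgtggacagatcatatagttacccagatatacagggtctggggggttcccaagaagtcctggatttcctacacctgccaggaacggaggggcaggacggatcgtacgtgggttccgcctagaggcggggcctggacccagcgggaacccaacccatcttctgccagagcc
Stxbp5 (chr1:6155529-6155778, minus strand): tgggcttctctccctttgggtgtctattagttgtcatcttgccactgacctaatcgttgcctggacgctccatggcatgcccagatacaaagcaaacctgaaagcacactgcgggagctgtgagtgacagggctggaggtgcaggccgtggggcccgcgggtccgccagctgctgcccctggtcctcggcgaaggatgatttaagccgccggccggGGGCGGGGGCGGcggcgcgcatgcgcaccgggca
Cplx2 (chr17:10236754-10237003, minus strand): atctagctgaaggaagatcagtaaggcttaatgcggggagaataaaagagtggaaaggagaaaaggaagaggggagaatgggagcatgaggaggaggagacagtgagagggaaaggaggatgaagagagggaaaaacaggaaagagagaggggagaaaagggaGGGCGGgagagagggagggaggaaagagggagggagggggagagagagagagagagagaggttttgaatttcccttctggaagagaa
Unc13b (chr5:62084787-62085036, plus strand): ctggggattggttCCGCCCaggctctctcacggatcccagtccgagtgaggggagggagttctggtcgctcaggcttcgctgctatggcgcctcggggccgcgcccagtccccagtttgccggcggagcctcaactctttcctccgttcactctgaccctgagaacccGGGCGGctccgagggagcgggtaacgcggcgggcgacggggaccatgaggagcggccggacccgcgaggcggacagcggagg
The 4 windows differ in composition, from 50.8% G and C in Cplx2, which is rich in purine runs, to 70.0% in Unc13b. Rab3b held 2 TGACG cores and no GC box, Cplx2 held 1 GC box, and Stxbp5 and Unc13b held 2 each.

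A window was given for 57 of the 72 members, and they were compared with all 27457 promoters of the table. GC boxes were found in 38 of the 57 (66.7%) against 32.4% of all promoters, and TATA boxes in 2 (3.51%) against 13.1%. The member windows were also richer in G and C, with a median of 61.2% against 52% in all promoters, and the part of that in the motif shares was not tested. The TGACG core was found in 15 (26.3%, against 19.0% of all) and the full palindrome TGACGTCA, which contains it, in 2 (3.51%, against 1.70%), Syn1 and Vamp1. These are counts of letters in the windows, with no test.

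Read by role, the called members were scattered, and no role held more than 1 of them in any comparison. With 7 to 16 genes in most roles and 2.87%, 7.84% and 4.03% of all genes called, counts of 0 or 1 say little about a role. The 16 synaptotagmins tested, several of which do not bind calcium, had 1 called member in Dox against Veh (Syt9) and none in the other comparisons, with medians of 0.02 for Dox and -0.03 for Dox + ABT against Veh. The 7 vesicle proteins (synapsins, Sv2a, Sv2c, Syp and Synpr) had no called member in any comparison, and their Dox differences from Veh ran from -0.11 to 0.11. Sv2a, the vesicle glycoprotein bound by levetiracetam, differed from Veh by -0.26 in Dox + ABT (95% interval -0.46 to -0.06; p = 0.012), and by -0.08 after adjustment for library kind. Of 7 vesicle SNAREs, Vamp5 alone was called.

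The 7 plasma membrane SNAREs had the highest median for Dox + ABT against Veh, 0.24, with 5 members above zero and 1 called (Stx3). Their within-group spread was also the largest of the roles, with a median SD of 0.37 log2 units against 0.23 for all 71 members. The median difference came from the fit without library kind. With kind in the fit the Stx3 difference went from 0.74 to 0.37 (limma p = 0.027). Of 10 SNAREs of endosomes, Golgi, ER and other inner membranes, Stx7 was called, and Dox differences from Veh ran from -0.18 to 0.31. The 9 SNARE regulators (complexins and syntaxin binding proteins) held Stxbp5 and Cplx2, and the 14 priming and active zone genes held Rab3b and Unc13b. Snap91, which the name rule took in, encodes the clathrin assembly protein AP180 and is no SNARE; its differences from Veh were -0.01 for Dox and -0.00 for Dox + ABT.

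**Figure D3:**
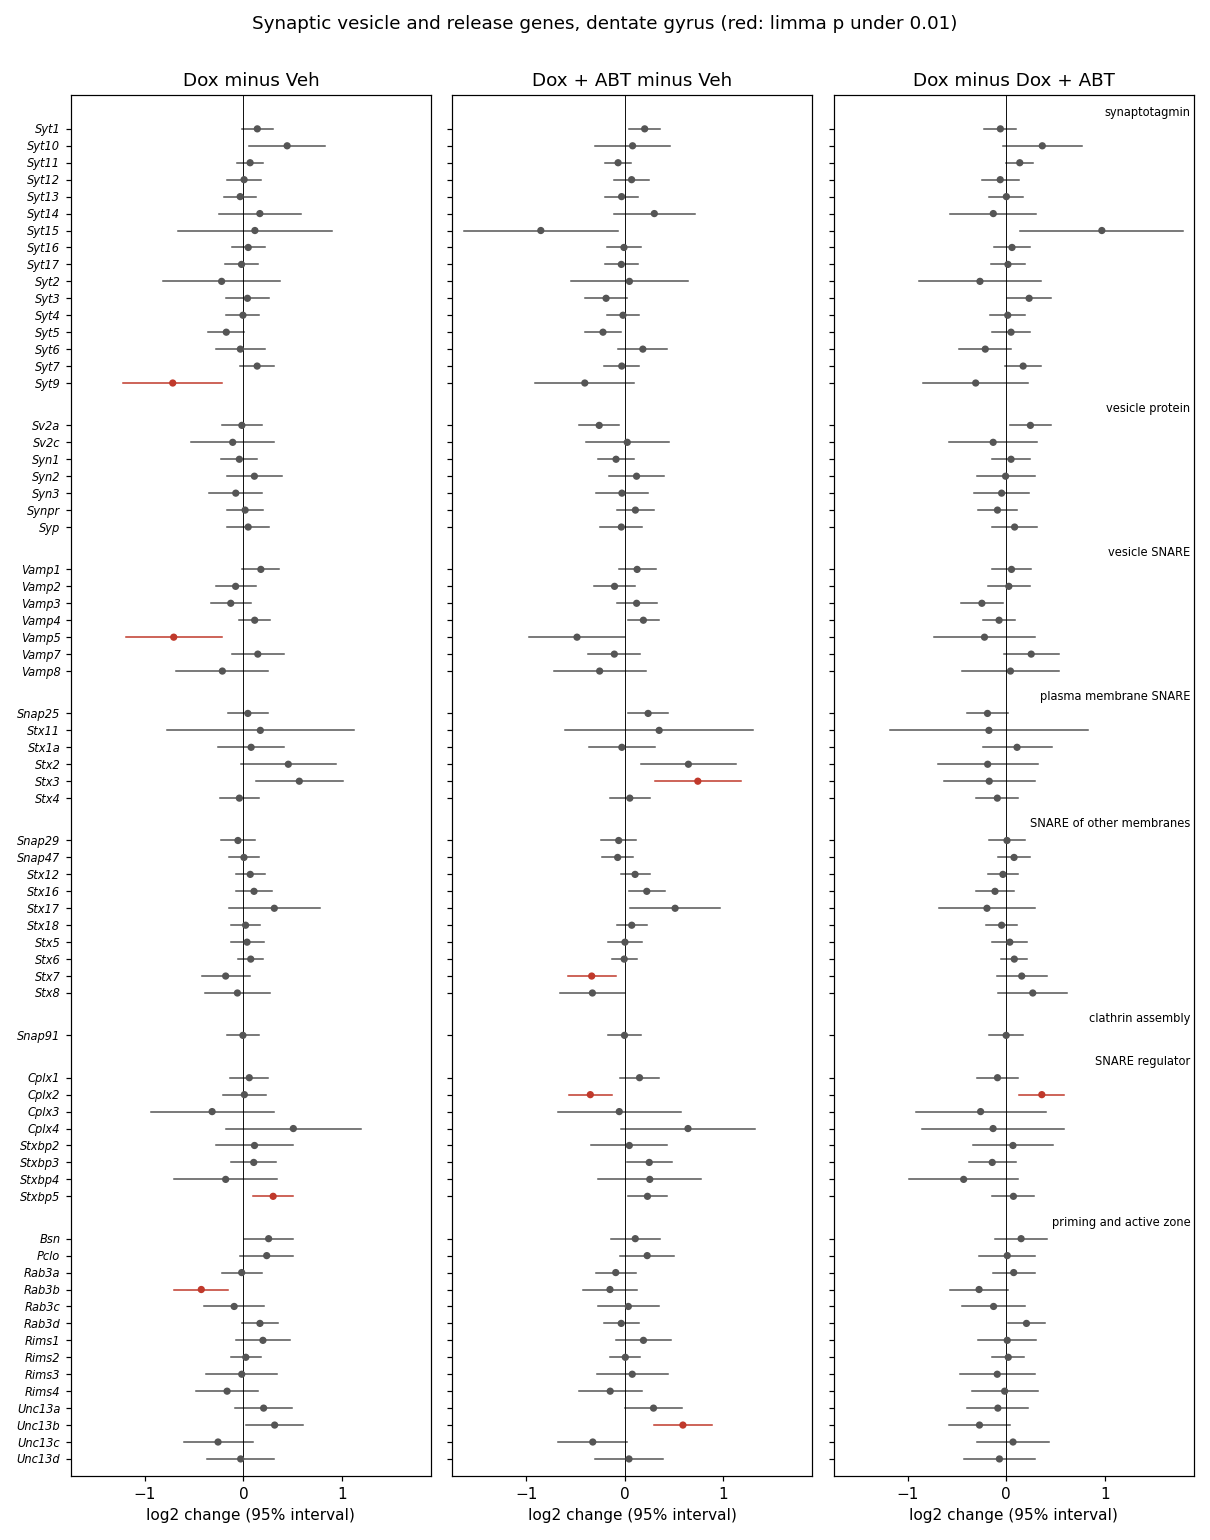
Log2 change (x axis) of tested members (y axis, ordered by role) in the 3 comparisons, with points for the limma estimate, lines for its 95% interval and red for p under 0.01. Most points lie close to zero; 4 members are red in Dox minus Veh, 4 in Dox + ABT minus Veh and 1 (Cplx2) in Dox minus Dox + ABT.

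No gene of the active zone scaffold passed in Dox against Veh, and the estimates went both ways. Of the 14 priming and active zone genes 7 were above zero and 7 below, with a median of 0.00; Rims2 differed by 0.02, Rims3 by -0.02 and Rims4 by -0.17, and by 0.04, -0.08 and -0.17 with library kind in the fit. Bsn (bassoon) measured 7687 to 17743 (median 12236) in Veh, 11705 to 17335 (median 15174) in Dox and 10576 to 15812 (median 13702) in Dox + ABT, and 7 of 8 Dox rats were above the Veh median. Its log2 difference for Dox was 0.26 ± 0.12 (limma p = 0.046, adjusted p = 0.48), and 0.19 (p = 0.089) after adjustment for library kind. Pclo (piccolo) differed by 0.24 (95% interval -0.04 to 0.51) and Rims1, the RIM scaffold that binds Rab3 and Munc13, by 0.20 (-0.08 to 0.47). Adjusted for library kind they were 0.19 (Pclo) and 0.11 (Rims1), and within the first kind -0.04 and 0.01. With array weights, under which 20.2% of all genes passed, both passed too, at 0.41 (Pclo, p = 0.00078) and 0.50 (Rims1, p = 0.00022). Unc13a, the main priming factor of forebrain excitatory synapses, differed by 0.20 (-0.09 to 0.50) in Dox and 0.29 (-0.00 to 0.58) in Dox + ABT; these were 0.08 and 0.02 after adjustment, and both passed with array weights, at 0.43 (p = 0.00072) and 0.40 (p = 0.00061).

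Members differed in how far they varied between rats of a group. Among 61 members with a mean of at least 50, the within-group SD had a median of 0.20 log2 units and ran from 0.10 for Syt11 to 0.66 for Syt2, a synaptotagmin of inhibitory terminals and caudal brain regions. All 12129 genes at that level had a median SD of 0.26. In the core set Syt1 and Syt7 were the steadiest, with SDs of 0.14 and 0.18, and Stx1a was the least steady, with 0.37. The precision of a comparison therefore differed by member: the 95% interval of the Dox difference spanned -0.01 to 0.30 for Syt1 and -0.26 to 0.41 for Stx1a.

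Some members differed more between the kinds of library than between treatments. Between kinds, with the groups in the fit, 8 of 71 members (11.3%) differed by at least 0.5 log2 units, as did 19.5% of all genes, and the median size was 0.17 for members and 0.24 for all genes. The plasma membrane syntaxins Stx2 and Stx3 were lower in the second kind, by log2 differences of -0.89 ± 0.14 and -0.79 ± 0.13 (SE), as were the autophagosomal Stx17 (-0.79 ± 0.15) and Unc13a (-0.56 ± 0.08). Stx8 (0.68 ± 0.08), a late endosomal partner of Stx7, and Vamp8 (0.62 ± 0.18) were higher. Unc13a averaged 4993 normalized counts in the first kind and 3356 in the second. Since the kinds were drawn from the same libraries, no test is given.

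In the fit adjusted for library kind, 3 members passed in Dox against Veh (Stxbp5, Rab3b and Syt9), where 2.7% of all genes did. In Dox + ABT against Veh 1 passed (Unc13b), against 1.37% of genes, and in Dox against Dox + ABT 2 passed (Cplx2 and Rab3d), against 4.76%. What sets the kinds apart was not tested, and only the ribosomal share, depth and marker medians by kind are given above.

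**Figure D4:**
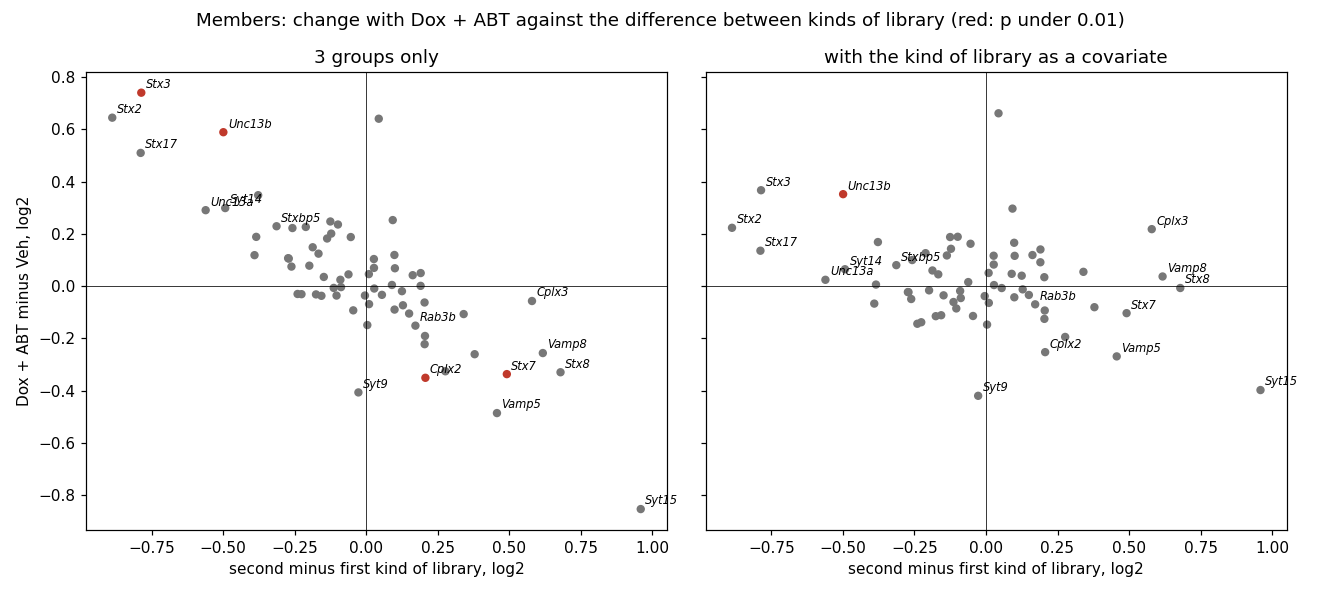
Log2 change of tested members in Dox + ABT against Veh (y axis) by its log2 difference between the second and the first kind of library (x axis), from the fit with the 3 groups only (left) and from the fit adjusted for library kind (right); red marks p under 0.01. Stx3 and Unc13b, left of zero on the x axis, and Stx7, right of it, shrink toward zero on the y axis in the second panel, where Unc13b alone is red.

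Whether the Dox difference depended on the kind of library was tested as an interaction over Veh and Dox rats of both kinds (4 and 6 Veh, 5 and 3 Dox). It passed p under 0.01 for 4 of 71 members (5.63%), against 7.75% of all genes, and for 1 or 2 members without Veh rat 1, 3, 4, 10 or 11 or Dox rat 1, 2 or 5. The share of all genes without these rats is not given, so the drop cannot be set against it. Of the 4 members, Stx4, Rab3c and Rab3d are named here after their values were seen. Rab3d, a Rab3 known from secretory cells, was higher in Dox than in Veh in the first kind by 0.34 and differed by -0.08 in the second, an interaction of -0.42 ± 0.14 (limma p = 0.0075, adjusted p = 0.12). Rab3c, a vesicle Rab3, showed the opposite order, with -0.50 in the first kind and 0.26 in the second. Stx3 differed by 0.06 in the first kind and 0.80 in the second.

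Rows of the same gene did not always move together. The table lists 123 rows for the members, 1 for 44 of them and several for 28, with no transcript names. Tested row by row, 6 of 116 member rows passed in Dox against Veh (5.17%, against 2.36% of all 20203 rows) and 8 in Dox + ABT against Veh (6.90%, against 6.39%). Syt7, the sensor of asynchronous release and facilitation, had 8 rows and did not pass as a gene. Its 95% intervals were -0.04 to 0.31 for Dox and -0.21 to 0.14 for Dox + ABT against Veh. With library kind in the fit its differences were 0.10 (p = 0.21) and -0.12 (p = 0.18).

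A pair of opposed Syt7 rows, picked after their values were seen, were its largest ones. The first, with a mean of 1750 normalized counts, had 1391 to 2263 (median 1865) in Veh, 1669 to 2310 (median 1819) in Dox and 1161 to 1895 (median 1468) in Dox + ABT. The second, with a mean of 650, had 335 to 698 (median 496) in Veh, 398 to 1238 (median 664) in Dox and 580 to 906 (median 765) in Dox + ABT. In Dox + ABT against Veh the first differed by -0.29 ± 0.09 (limma p = 0.0030, adjusted p = 0.14) and the second by 0.57 ± 0.17 (p = 0.0020, adjusted p = 0.14). With library kind in the fit, an alternative chosen after seeing the data, these were -0.28 (p = 0.0071) and 0.38 (p = 0.025), and within the first kind -0.32 (p = 0.023) and 0.53 (p = 0.0059). The first row's share of all Syt7 counts was 52.2% ± 2.86 (Veh), 48.3% ± 7.09 (Dox) and 43.7% ± 4.24 (Dox + ABT; SD, n = 10, 8 and 8). Within the first kind of library these shares were 49.7% ± 1.79, 45.1% ± 6.28 and 42.6% ± 2.96 (n = 4, 5 and 7).

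**Figure D5:**
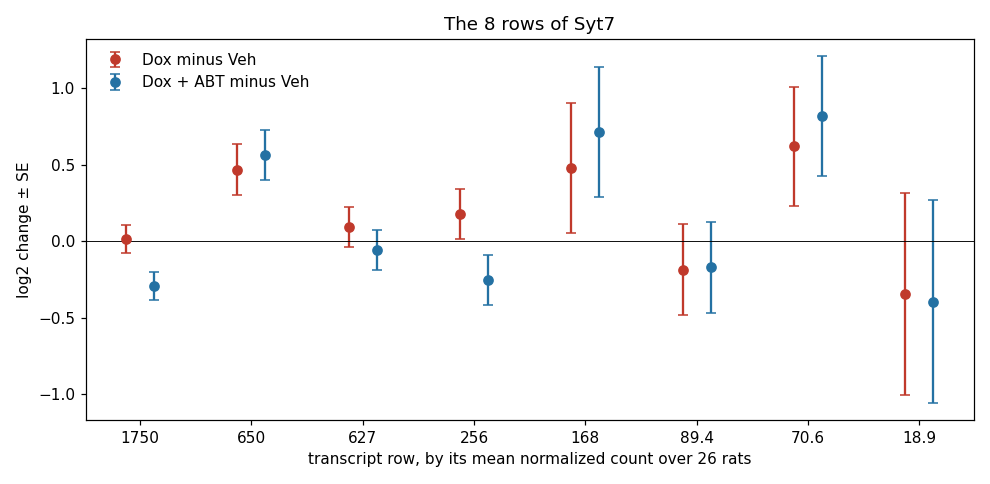
Log2 change ± SE (y axis) of the 8 rows of Syt7 in Dox and in Dox + ABT against Veh, with rows ordered by mean normalized count (x axis). The row with a mean of 1750 lies below zero in Dox + ABT (-0.29) and the row with a mean of 650 above it in both comparisons (0.47 and 0.57).

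The wider presynaptic pathway was read from 84 other genes, which load transmitter, disassemble SNAREs, retrieve vesicles or scaffold the terminal. None passed p under 0.01 in Dox against Veh (6 at p under 0.05, all tested by limma), with a median difference of 0.02. Of all 15595 genes 2.87% passed, and 1583 were at p under 0.05. The 3 with the smallest p were Baiap3 (Munc13-like; 0.31, p = 0.019), Ppfia1 (liprin-alpha-1; 0.23, p = 0.022) and Slc17a6 (VGLUT2; -0.79, p = 0.031), none of which passed. In Dox + ABT against Veh 5 of 84 passed (5.95%), below the 7.84% of all genes, and they are named here after their values were seen. Ppfia2 and Tspoap1, an active zone scaffold pair, rose by 0.38 and 0.49, while Slc30a3 (the vesicular zinc transporter ZnT3 of mossy fibers), Ppfia3 and Syngr2 fell by 0.42, 0.27 and 0.51 on the log2 scale. Adjusted for library kind these were 0.24 (Ppfia2, p = 0.012), 0.19 (Tspoap1, p = 0.095), -0.15 (Ppfia3, p = 0.10) and -0.26 (Syngr2, p = 0.075). In that fit 1 of the 84, Slc30a3, passed, at -0.35 (p = 0.0088), where 1.37% of all genes did; within the first kind it differed by -0.14 (p = 0.18). None of the 84 passed in Dox against Dox + ABT, where 4.03% of all genes did. With library kind in the fit 2 passed there, where 4.76% of all genes did. These were Slc17a6 (-1.05, limma p = 0.0075) and Snapin (-0.25, limma p = 0.0052), named after their values were seen.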

How the data were processed

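DG poly(A) RNA from 26 rats was sequenced by the authors on an Ion Proton, aligned to rn6 with STAR 2.5.3a in Partek Flow and normalized by Median Ratio. The deposited values are these normalized counts, a signal that is not whole numbers, so no count model was used. Members and gene lists were chosen with earlier results of these data known. Rows were summed by gene ID, genes with a mean under 5 were left out, and log2(value + 1) was fitted with limma 3.58.1 (R 4.3.3; 3 groups, all 26 rats, eBayes with a variance trend, two-sided p). Log2 differences are therefore understated for low genes. Calls use an unadjusted p under 0.01 after the study; adjusted p-values are Benjamini-Hochberg over 15595 genes. Reads per library were estimated from the value of 1 read; 75.7% to 78.9% of low values were whole multiples of it (tolerance 0.02 reads), so reads were not recovered. Library pairs correlated at 0.941 to 0.987 and none were identical. Named genes were all members past p under 0.01 in any comparison, the 18 core genes and, of the other presynaptic list, the 3 with the smallest p in Dox against Veh. Some members enter the fits and counts but are not reported here. The fit was tested on simulated data. Alternatives covered the pseudocount, filter, scaling, weights, kind of library, rows, a replicate block and each rat left out. Drawing used Python 3.11.15 and matplotlib 3.10.9.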

Additional observations from a re-analysis of the deposited data

Results flagged for a closer look

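In 5 of 75 sets of rats (25 named members in 3 groups; 6.67%), 1 rat stood apart from the others of its group, where chance gives about 1 in 20. Dox + ABT rat 3 was lowest for Syn1, at 6868 normalized counts with the next rat at 8414, and for Syp, at 7058 with the next at 9176. Dox + ABT rat 4, the one Dox + ABT rat of the second kind of library, was lowest for Stx3, at 84.7 with the next rat at 153, and for Unc13b, at 437 with the next at 592. Without it, Unc13b and Stx3 kept their calls in Dox + ABT against Veh. Dox rat 5 was lowest for Rab3a, at 7675 with the next rat at 9939.

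The Dox difference was unlike between the kinds of library for 4 of 71 members (5.63%) by the interaction test, which 7.75% of all genes passed, and for 1 or 2 members without Veh rat 1, 3, 4, 10 or 11 or Dox rat 1, 2 or 5. The share of all genes without these rats is not given, so the drop cannot be set against it. The interaction was 0.73 log2 units for Stx3 (p = 0.0080), 0.49 for Stx4 (p = 0.0049), 0.76 for Rab3c (p = 0.0079) and -0.42 for Rab3d (p = 0.0075), all by limma, with adjusted p-values of 0.11 to 0.12. The cause was not tested.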

How the results depend on the processing

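Of 371 alternative fits of the 9 called changes, 308 kept the direction and the call, 63 kept the direction only and 0 reversed. Of 2723 alternative fits of the other named member changes, 6 moved by over 1 SD. For the other presynaptic genes named, 158 of 205 alternative fits of 5 called changes kept the call and 47 kept the direction only, and 5 of 787 of their remaining changes moved by over 1 SD. The member counts moved in these settings. Counts follow the order of the comparisons (Dox and Veh; Dox + ABT and Veh; Dox and Dox + ABT), which were 4, 4 and 1. With array weights they were 14, 22 and 5, where 20.2%, 34% and 10.3% of all genes passed. With array weights and the kind of library together the counts were 0, 2 and 5 (1.88%, 2.78% and 10.7% of all genes), within the first kind of library 2, 0 and 2 (4.76%, 1.1% and 8.21% of all genes; within the second, Dox and Veh alone could be fitted, with 3 and 3.57%), and adjusted for kind 1 in Dox + ABT with Veh and 2 in Dox with Dox + ABT (1.37% and 4.76%). Quantile normalization gave 7 in Dox + ABT with Veh and 3 in Dox with Dox + ABT (7.84% and 4.09% of all genes), and moved the median of the latter to -0.052. A mean of at least 20 left 2 in Dox with Veh, since Syt9 and Vamp5 are under it (2.84% of all genes). Tested row by row, 4 of 116 member rows (3.45%), lying in 3 members, passed in Dox with Dox + ABT, against 3.25% of all rows. Leaving out each rat gave 2 to 5, 3 to 11 and 0 to 3 members, where 1.71% to 4.53%, 4.46% to 13.7% and 2.69% to 5.05% of all genes passed. The medians were 0.01 to 0.04, -0.01 to 0.04 and -0.02 to 0.01. For the interaction 1 to 5 members passed, and the share of all genes in those fits is not given. The cause was not tested.

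A replicate block on the rats' numbers gave 5, 5 and 1 members, where 4.91%, 7.57% and 2.58% of all genes passed. Same-numbered rats showed little shared deviation, with correlations of -0.171 to 0.298 over 5, 8 and 3 shared numbers. So few numbers cannot settle whether they mark a pairing. Under the block Rab3b (-0.39, p = 0.054) and Syt9 (-0.50, p = 0.17) in Dox with Veh did not pass, nor did Cplx2 in Dox with Dox + ABT, whose difference was 0.14 (p = 0.35) in place of 0.36. Low members such as Syt9 and Vamp5 rest on few reads per rat, which limits their precision. The 2 kinds of library, a single hemisphere per rat and Veh rats from another study are further limits.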
